A study of Homo sapiens with 6 samples.

Results

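The stathmin genes STMN1, STMN2, STMN3 and STMN4 were followed in RNA-seq data of 22RV1 cells, a human castration-resistant prostate cancer (CRPC) line. They are the 4 genes of that family name among 26255 genes listed in every sample, and they were chosen on the comparison of bruceantin (BCT) with DMSO because STMN4 stood out there. Their BCT and DMSO values are therefore given as a description, with no p. The DMSO group held 3 samples of cells given the vehicle, and the BCT group held 3 samples of cells given 10 nM BCT, a plant quassinoid, both for 24 h in RPMI medium with fetal bovine serum. No genotype or other agent distinguished the groups, and a single cell line was used. The labels do not say whether the samples of a group came from separate cultures, so the spread between them may be technical.

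Stathmins bind pairs of alpha and beta tubulin, keep them out of the microtubule and favor its shortening, and phosphorylation weakens this hold on tubulin. STMN1 (oncoprotein 18) is the widespread member and is abundant in dividing cells, where the kinases of mitosis switch it off. STMN2 (SCG10), STMN3 (SCLIP) and STMN4 (RB3) are known mainly from neurons, where they sit on membranes and act in the growth of axons and dendrites.

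Expression was read as FPKM, the number of fragments scaled to transcript length and to the mapped reads of the sample, so levels of different genes can be set side by side. Among genes at low FPKM, the most common ratio to DMSO replicate 1 gave relative depths of 0.877 to 1 with DMSO and 1.05 to 1.125 with BCT. The read count behind each gene is not known from FPKM. Of the genes listed, 12729 averaged 1 FPKM or more and were fitted as log2(FPKM + 0.1), a scale on which changes of low genes are understated. The call required a log2 fold change beyond 0.85 in either direction with an FDR under 0.05. Calls were made for 31.6% of these genes with BCT, 17.8% lower and 13.9% higher, and in 85.3% the ranges of both groups were separate. Over all genes the median log2 difference was -0.04. When every sample was rescaled to the same FPKM sum, that median moved to 0.72 and the calls became 668 lower and 5614 higher, against 2263 lower and 1764 higher as deposited. MIR6087 alone made up 31.7% to 55.3% of a sample's sum. The luminal keratin genes were present, with KRT8 at 261.7 to 279.6 FPKM with DMSO and 553 to 680.5 FPKM with BCT. The summed level of 3 basal markers was at most 0.44 FPKM and that of 3 endothelial markers at most 0.051 FPKM. The summed level of 4 fibroblast markers was 2.57 to 2.70 FPKM with DMSO and 5.81 to 6.995 FPKM with BCT, most of it COL1A1 with BCT, and that of 3 blood cell markers was 2.08 to 3.16 and 4.99 to 8.27 FPKM, nearly all CD68. The part of these markers in the results below was not tested.

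STMN1 was the most abundant stathmin with DMSO. Its level was 613, 534 and 581 FPKM in DMSO replicates 1 to 3 and 121, 82.1 and 80.0 FPKM in BCT replicates 1 to 3. Every BCT sample lay far below every DMSO sample, and BCT replicate 1 was the highest of its group. The mean was 576 ± 39.7 FPKM with DMSO and 94.3 ± 23.0 FPKM with BCT (SD, n = 3 each), a level 6.11-fold lower and a log2 fold change of -2.63 (standard error 0.15). STMN1 ranked between 161 and 165 among all genes listed with DMSO and between 642 and 1074 with BCT. In bulk RNA, fewer cells that express a gene and less of its RNA per cell cannot be told apart. The gene lies on the minus strand of chr1:26210677-26233368 (hg19), an interval it shares with MIR3917, which was listed at 0 in all samples. No stretch of 100 bases, the read length, of its GENCODE transcripts occurred in a transcript of another gene, its processed pseudogenes STMN1P1 and STMN1P2 included. Only exact identity was searched for, for this and the other members, so sharing of reads between similar but not identical stretches was not tested.

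E2F1, an activator of S-phase genes and a known regulator of STMN1, fell from 49.7 ± 0.971 to 11.8 ± 1.61 FPKM (log2 fold change -2.08, adjusted p = 6.4e-07 from limma). A stretch of the STMN1 promoter is therefore shown, with the letters that match the E2F motif TTTNNCGC in capitals. RefSeq (GRCh38.p14) gives STMN1 3 start sites, and the 250 bases before each were searched on both strands. The match TTTGGCGC begins 38 bases before one of the starts, and the stretch lies at chr1:26232930-26232959 (hg19, minus strand), where the GENCODE annotation also places an exon and a UTR of STMN1 transcripts with other starts.

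STMN1: acgtgcctctgTTTGGCGCttttgtgcgcg

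Another start of STMN1 has the match TTTCCCGC at the far end of its window, 250 bases before it, and the window of the remaining start has no match. The first window also holds 2 E-boxes (CACGTG), 1 CCAAT box (CCAAT) and 3 GC boxes (GGGCGG). Of 35116 promoter windows of the same length, 5.92% hold the E2F motif, 6.34% an E-box, and 42.6% a GC box, while 11240 windows hold a CCAAT box. A match is a description of letters and no measurement of binding.

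STMN3 was the second stathmin of these cells. It stood at 108, 98.3 and 106 FPKM in DMSO replicates 1 to 3 and at 47.0, 39.2 and 36.3 FPKM in BCT replicates 1 to 3. The groups did not overlap, and the BCT sample nearest to DMSO was again replicate 1. Its mean was 104.2 ± 5.26 FPKM with DMSO and 40.8 ± 5.52 FPKM with BCT (SD, n = 3 each), 2.55-fold lower, with a log2 fold change of -1.36 (standard error 0.093). Its rank among all genes went from between 886 and 964 with DMSO to between 1990 and 2598 with BCT. The difference was smaller than that of STMN1, and STMN1 exceeded STMN3 by a ratio of 5.44 to 5.67 with DMSO and of 2.09 to 2.57 with BCT. This ratio is taken within a sample and does not depend on its scaling by a single factor.

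STMN3 lies on the minus strand of chr20:62271058-62284963 (hg19). The 250 bases before its RefSeq start, at chr20:62284120-62284369 of hg19 within the deposited interval and outside the exons of the GENCODE annotation, are shown because this member was also lower with BCT and its promoter can be set beside that of STMN1. The window has no match to TTTNNCGC, so no letters are in capitals. It has 2 GC boxes, and it holds none of the E-box, the CCAAT box, the cyclic AMP response element (TGACGTCA), the AP-1 motif (TGANTCA), the TATA box (TATAAA) or the left part of the motif of the repressor REST (TTCAGCACC). These last 4 occur in 1.65%, 6.57%, 10.7% and 0.288% of all windows.

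STMN3: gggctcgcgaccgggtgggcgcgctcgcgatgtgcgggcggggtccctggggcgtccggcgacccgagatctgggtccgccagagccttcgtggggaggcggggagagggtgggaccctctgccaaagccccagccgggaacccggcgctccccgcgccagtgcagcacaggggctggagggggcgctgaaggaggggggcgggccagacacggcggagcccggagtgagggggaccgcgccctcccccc

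STMN4 was scarcely detected with DMSO and was an abundant transcript with BCT. It was listed at 0.780, 0.593 and 0.578 FPKM in DMSO replicates 1 to 3 and at 67.5, 81.2 and 73.7 FPKM in BCT replicates 1 to 3. The lowest BCT sample was thus far above the highest DMSO sample, and as for STMN1 and STMN3 the BCT sample nearest to DMSO was replicate 1. The mean went from 0.650 ± 0.113 to 74.2 ± 6.86 FPKM (SD, n = 3 each), a ratio of 114.0 and a log2 fold change of 6.64 (standard error 0.11). Among all genes its rank moved from between 12887 and 13378 to between 1089 and 1322. Its mean over all samples, 37.4 FPKM, passed the filter on low values only through the BCT samples.

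**Figure D1:**
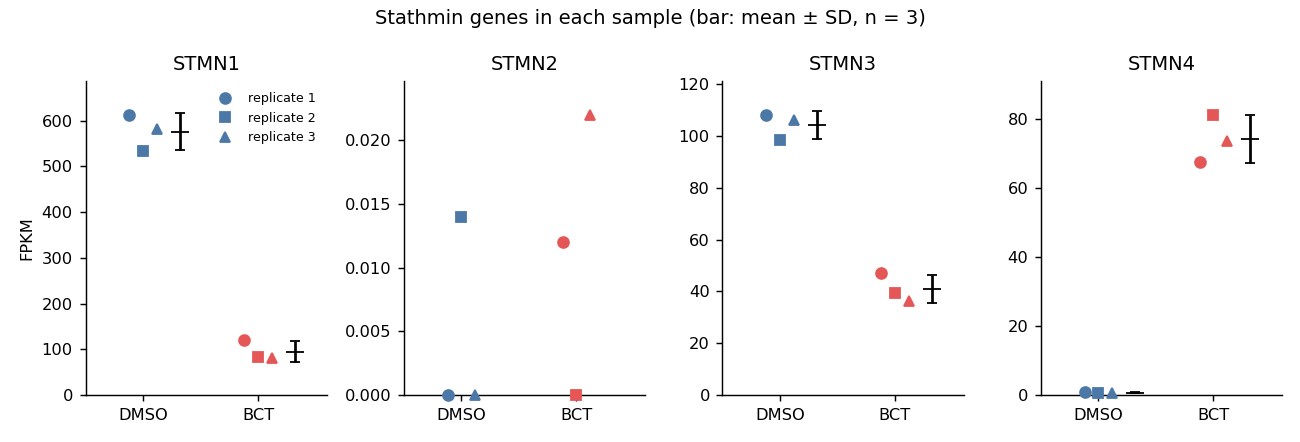
FPKM of each stathmin gene (vertical axis, a separate linear scale from 0 in each panel) in the 3 DMSO (blue) and 3 BCT samples (red), with the mean ± SD beside the points except for STMN2. STMN1 and STMN3 lie lower and STMN4 higher in every BCT sample than in any DMSO sample, and STMN2 stays at or below 0.022 FPKM.

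STMN2 was practically absent. It was listed at 0, 0.014 and 0 FPKM in DMSO replicates 1 to 3 and at 0.012, 0 and 0.022 FPKM in BCT replicates 1 to 3, so the groups overlapped at the bottom of the scale. With these values it was not tested, and no fold change is given. STMN2 and STMN4 are both on chromosome 8, at 80523049 to 80578410 on the plus strand and at 27092840 to 27115956 on the minus strand of hg19, and no 100-base stretch of their transcripts, or of those of STMN3, occurred in a transcript of another gene.

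The order of the members differed between the groups. With DMSO it was STMN1, STMN3, STMN4 and STMN2, and no 2 of them overlapped. With BCT, STMN1 and STMN4 led and their ranges met, at 80.0 to 121 and 67.5 to 81.2 FPKM, although STMN1 was the higher in each library. STMN4 amounted to 0.559, 0.990 and 0.921 of STMN1 in BCT replicates 1 to 3, against 0.0013, 0.0011 and 0.00099 in the DMSO replicates. STMN4 exceeded STMN3 by 1.44 to 2.07 in the BCT samples.

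The summed level of the family was 722, 633 and 688 FPKM in the DMSO replicates and 235, 202 and 190.1 FPKM in the BCT replicates. The family as a whole was thus lower in each BCT sample, although STMN4 was higher. STMN1 held 84.6% ± 0.282 of the sum with DMSO and 44.6% ± 5.83 with BCT, STMN3 held 15.3% ± 0.286 and 19.5% ± 0.447, and STMN4 held 0.0952% ± 0.0121 and 35.9% ± 6.24 (SD, n = 3 each). BCT replicate 1 had the lowest STMN4 share of the BCT samples, 28.7% against 40.1% and 38.8%. That sample was also the nearest of the BCT samples to the DMSO mean in 87.8% of all called genes.

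**Figure D2:**
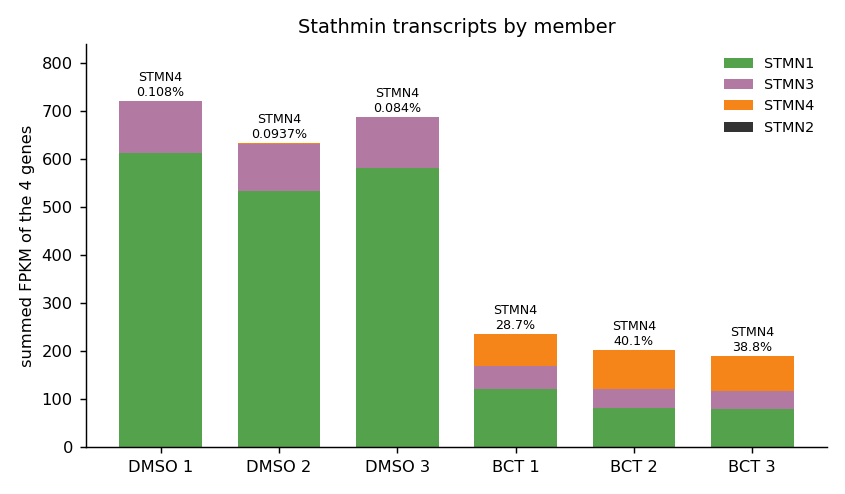
Summed FPKM of the 4 stathmin genes in each sample, stacked by member, with the STMN4 share of the sum above each bar. The sum is 633 to 722 with DMSO, nearly all STMN1 and STMN3, and 190.1 to 235 with BCT, of which STMN4 makes up 28.7% to 40.1%.

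Under the rescaling to equal sums the log2 fold changes were -1.87 for STMN1, -0.59 for STMN3 and 7.36 for STMN4. Relative to the median of all genes they were -2.59, -1.31 and 6.64, against -2.60, -1.32 and 6.67 as deposited. A single factor per sample moves all genes nearly alike, so this closeness is fixed by the rescaling. Quantile normalization, which uses no single factor, gave -2.32, -1.26 and 6.68 relative to its median. Without BCT replicate 1 the log2 fold changes on the deposited scale were -2.83, -1.46 and 6.70.

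STMN4 had been singled out for the size of its rise. Among genes called with separate ranges in the groups it had the largest fold change upward. The next such gene was CREB5, a transcription factor of the CREB family, at 5.68 on the log2 scale. Without the requirement on overlap, the small RNA genes MIR5096 (9.38) and SNORD36A (8.54) ranked ahead of STMN4 and MIR3665 (5.83) ahead of CREB5. Of the DMSO replicates, 1 and 2 listed MIR5096 at 0 and replicate 3 at 1269 FPKM, and SNORD36A stood at 744, 0 and 687 FPKM in the BCT replicates. With a pseudocount of 0.01 in place of 0.1, RRAD at 6.824 was level with STMN4 at 6.821.

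By the root mean square difference of log2(FPKM + 0.1) over the 6 samples, each profile centered on its own mean, the genes most like STMN4 were CREB5, RRAD (a small GTPase), NR4A3 (an orphan nuclear receptor), C8orf4 and EGR4 (a zinc-finger transcription factor). Their distances were 0.54, 0.66, 0.80, 0.87 and 0.91 log2 units. All 5 were at low or modest levels with DMSO, from 0.029 ± 0.020 FPKM for EGR4 to 2.72 ± 0.348 FPKM for C8orf4. With BCT they ranged from 3.85 ± 1.18 FPKM for EGR4 to 85.5 ± 3.71 FPKM for C8orf4, the only one above the BCT level of STMN4. Since STMN4 was chosen on this contrast, the likeness is a description.

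**Figure D3:**
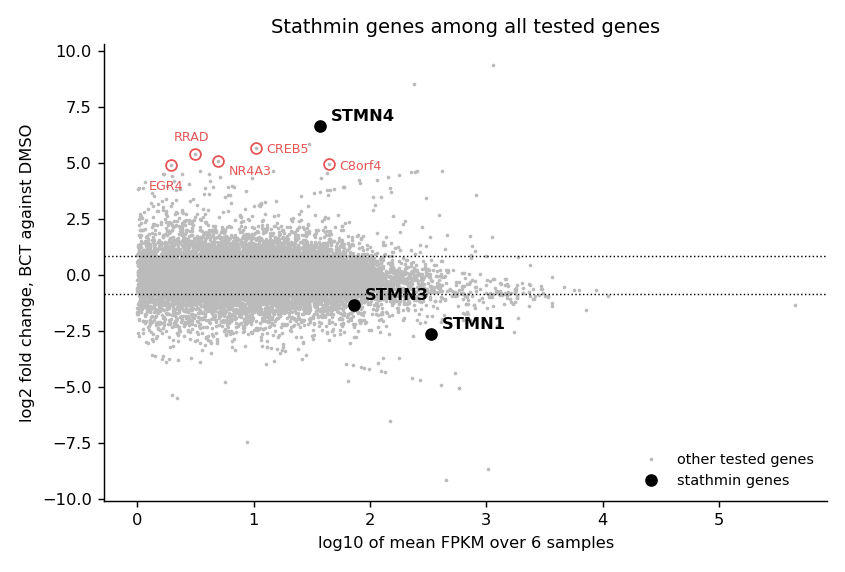
Log2 fold change of BCT against DMSO (vertical axis) by the log10 of the mean FPKM over all samples for every tested gene (grey), with the 3 tested stathmin genes in black, the 5 genes most like STMN4 circled in red, and dotted lines at the fold threshold of 0.85 in both directions. STMN4 stands at 6.64, above the circled genes at 4.90 to 5.68, while STMN3 at -1.36 and STMN1 at -2.63 lie below 0.

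The genes most like STMN1 had smaller distances. The distance grows with the gap in fold change and STMN4 was chosen as the largest rise, so this contrast is no result about shared pattern. DBI, an acyl-CoA binding protein, was at a distance of 0.043 log2 units, SLC29A1, a nucleoside transporter, at 0.066, and PC, the pyruvate carboxylase, at 0.067. DBI was at 221, 195 and 210 FPKM in DMSO replicates 1 to 3 and at 45.6, 31.8 and 30.5 FPKM in BCT replicates 1 to 3. DBI shared with STMN1 the high value of BCT replicate 1. This trait is general, since that sample was nearest to the DMSO mean in 87.8% of all called genes.

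The summed level of the tubulins, the partners of stathmin, was 3910 to 4206 FPKM with DMSO and 1281 to 1617 FPKM with BCT. Of 16 alpha and beta tubulin genes, 11 were tested, 4 fell and 1 rose, with a median log2 fold change of -0.57. That median became 0.20 under equal sums, where 2 were called lower and 5 higher, and -0.18 without MIR6087 in those sums. Over all genes tested, the share called as deposited was 31.6%, with 17.8% lower and 13.9% higher. Under equal sums, 668 of the 12729 genes were called lower and 5614 higher. The counts of this and the following lists, each of few genes, are to be read against those of the same scaling. Relative to the median of all genes the tubulin median was -0.53 as deposited and -0.52 under equal sums. A single factor per sample keeps these nearly equal by construction, and quantile normalization gave -0.26. TUBA1B, the most abundant alpha tubulin of these cells, fell from 2047 ± 120.0 to 430.8 ± 103 FPKM and TUBB, a widespread beta tubulin, from 663 ± 11.2 to 156 ± 26.2 FPKM (mean ± SD of 3 samples), with log2 fold changes of -2.27 and -2.104 and adjusted p = 2.3e-06 and 9.5e-07 by limma. TUBB4B and the neuronal TUBB3 each had a log2 fold change of -0.93, and without BCT replicate 1 TUBB3 was at -0.81 and no longer called. TUBB2A rose from 11.5 ± 0.524 to 30.7 ± 2.21 FPKM. TUBA1C at -0.57 and TUBA1A at -0.60 did not pass the fold threshold. Tubulin genes are close copies of each other, so the division of reads among them is uncertain. Of the 7 tubulin folding cofactors and their partners, 3 fell and 1 rose. TBCD (-1.62), ARL2 (-1.07) and TBCB (-1.002) were lower on the log2 scale, TBCC was higher (0.88, but 0.83 without DMSO replicate 2 and 0.84 without BCT replicate 2, no longer called), and TBCA (-0.44) and TBCE (0.36) were not called.

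Other proteins that shorten or cut microtubules had 12 of 14 genes tested, with 2 called lower and 0 higher and a median of -0.17, against 0 lower and 5 higher and a median of 0.60 under equal sums. One of them was the kinesin gene KIF18B at -0.89, which was at -0.83 and not called without BCT replicate 3. KATNA1, the catalytic subunit of the severing enzyme katanin, was at 0.84, just short of the threshold, and was called when DMSO replicate 1 (0.86), DMSO replicate 2 (0.851), BCT replicate 1 (0.90) or BCT replicate 3 (0.86) was left out, and the kinesin gene KIF2C at -0.32. Proteins that stabilize microtubules or bind their ends had 23 of 30 genes tested, with 6 called higher, 2 called lower and a median of 0.23, and under equal sums 15 were called higher and 0 lower. CLASP2, which holds growing ends, rose from 5.53 ± 0.534 to 16.7 ± 3.05 FPKM (mean ± SD of 3 samples), or by 1.57 on the log2 scale, MAP7D1 rose by 1.25, and the minus-end protein gene CAMSAP2 by 0.99. EML3 (-1.34) and CLIP2 (-0.93) were called lower, CLIP2 not without BCT replicate 2 (-0.83). MAPRE1 (0.11) and TPX2 (-0.26) were not called.

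Kinases and phosphatases that act on stathmin, with its binding partners, had 23 of 25 genes tested, with 7 called lower, 1 higher and a median of -0.38, against 2 lower, 7 higher and a median of 0.39 under equal sums. CAMK4 was at 4.24 ± 0.414 FPKM with DMSO and 0.875 ± 0.210 FPKM with BCT (log2 fold change -2.17), and CDK2 was at 128 ± 5.06 and 32.05 ± 4.404 FPKM (-2.005; SD, n = 3 each). CAMK2B was at -1.28, or at -0.79 and not called with a pseudocount of 1. CDKN1B, a CDK inhibitor that also binds STMN1, rose from 92.0 ± 5.44 to 179 ± 2.83 FPKM (log2 fold change 0.96, adjusted p = 1.5e-06 from limma). UHMK1, a kinase that binds and phosphorylates stathmin, was at -0.11, the GTPase RAC1 at -0.04 and the phosphatase subunit PPP2CA at 0.58, none of them called.

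Of 6 known regulators of stathmin genes, all tested, 2 fell and 1 rose, against 1 lower and 3 higher under equal sums. Beside E2F1, the cell cycle factor FOXM1 was at 75.0 ± 1.37 FPKM with DMSO and 35.2 ± 2.95 FPKM with BCT (log2 fold change -1.09). REST, a repressor of neuronal genes, rose from 12.1 ± 0.812 to 22.6 ± 1.54 FPKM (mean ± SD of 3 samples), or by 0.89 on the log2 scale, but was not called without BCT replicate 3 (0.84) or with a pseudocount of 1 (0.845). RCOR1 (0.51) and TARDBP (0.17), whose product guards the splicing of STMN2 RNA, were not called.

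Of 26 other neuronal and neuroendocrine genes, 10 were tested, 4 fell and 1 rose, with a median log2 fold change of -0.57, against 1 lower, 3 higher and a median of 0.19 under equal sums, and the 16 others had means of 0.0085 to 0.852 FPKM. Their summed level was 317 to 340.0 FPKM with DMSO and 189 to 210 FPKM with BCT, a log2 ratio of -0.72 that became 0.046 under equal sums. Without MIR6087 in those sums, this ratio was -0.33 and the median log2 fold change -0.19. NRCAM, a neuronal adhesion molecule, fell by 1.84, the synaptotagmin SYT4 by 1.34 and the neuronal enolase ENO2 by 1.16 on the log2 scale. SCG2, a secretogranin, rose from 1.16 ± 0.064 to 3.29 ± 0.618 FPKM (mean ± SD of 3 samples), 1.415 on the log2 scale. SYP (-0.31) and SCG3 (-0.40) were not called. Without the filter on low values, 10 of the 26 were called, 5 in each direction, against 5294 of all 26255 genes, 2725 lower and 2569 higher. The median log2 fold change of the 26 was then 0.24, so its sign depended on the filter.

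**Figure D4:**
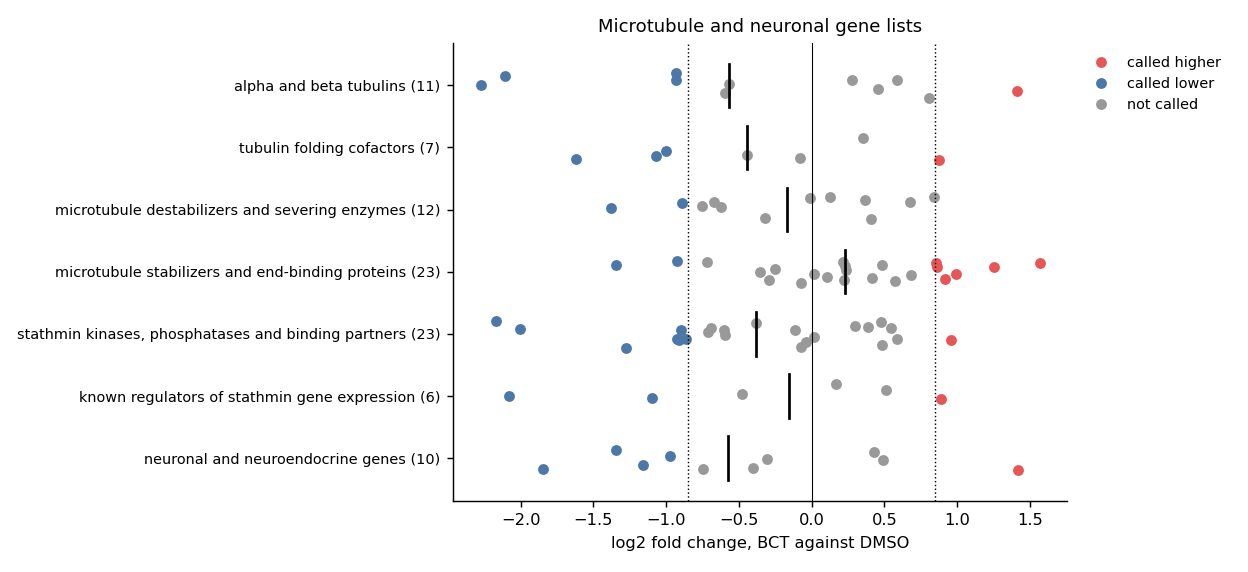
Log2 fold change of BCT against DMSO (horizontal axis) for each tested gene of the 7 lists, with the number tested in brackets, the median of each list as a black bar and dotted lines at the fold threshold of 0.85 in both directions. The medians run from -0.57 for the tubulins and the neuronal genes to 0.23 for the stabilizers, on the deposited scale.

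Over the 7 lists together, 24 of 92 tested genes were called lower and 11 higher, 38.0% of them in all, near the 31.6% over all genes tested. With rescaling to equal sums TUBA1B, TUBB, TBCD, CDK2, CAMK4, E2F1 and NRCAM kept their calls as lower, while among others TUBB3, TUBB4B, TBCB, ARL2, KIF18B, EML3, CLIP2, CAMK2B, FOXM1, SYT4 and ENO2 were no longer called.

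Neighbors of the stathmin genes were examined as well. Within 250 kb of a member on either side, 28 of 43 neighbors were tested, with 4 called lower and 2 higher as deposited. These called neighbors were no larger a share than the 31.6% over all genes tested. Under equal sums 3 neighbors were called lower and 10 higher, where 6282 of the 12729 genes tested were called. Near STMN4, the tested neighbors were TRIM35 at 0.61, PTK2B at -0.66, CHRNA2 at -2.48 and EPHX2 at -0.81, at distances of 26.4, 53.0, 201.3 and 232.6 kb. Of these CHRNA2, a nicotinic receptor subunit, was called, with 25.7 ± 1.78 FPKM with DMSO and 4.73 ± 1.78 FPKM with BCT (limma adjusted p = 1.1e-05), and EPHX2 was called too without BCT replicate 1 (-0.86). Near STMN1, SEPN1 (selenoprotein N) at -1.76 and MAN1C1 (a mannosidase) at -0.98 were called among 7 tested genes, MAN1C1 not with a pseudocount of 1 (-0.56). Near STMN3, ZGPAT was at 0.98 and GMEB2 at 0.87. GMEB2 was not called without DMSO replicate 2 (0.846), BCT replicate 2 (0.82) or BCT replicate 3 (0.847). The interval listed for ZGPAT is shared with overlapping genes, so its reads may be divided uncertainly. Near STMN2, the tested neighbor HEY1 was at -0.71 and was not called.

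**Figure D5:**
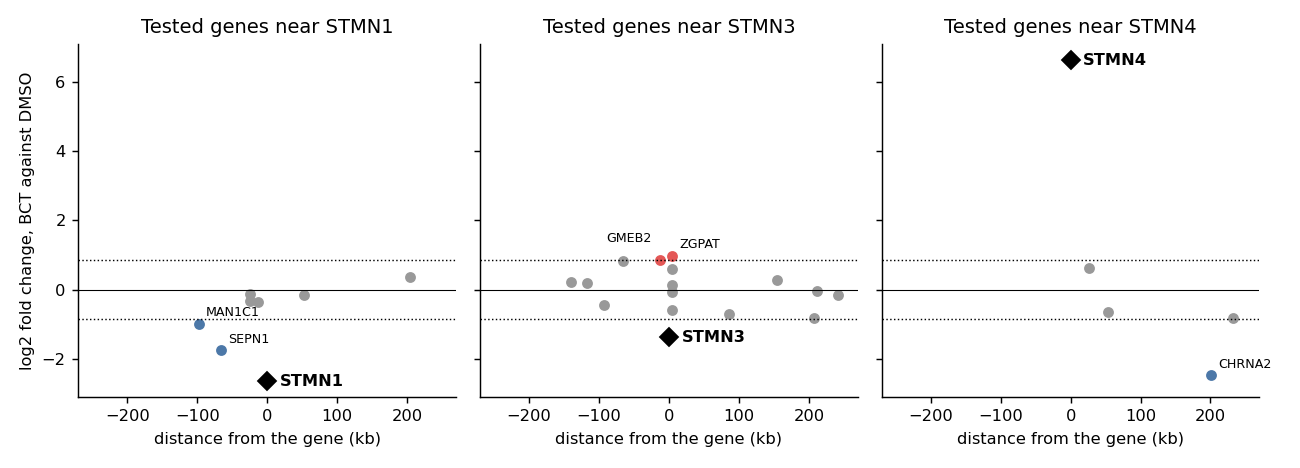
Log2 fold change of BCT against DMSO (vertical axis) of tested genes by their distance in kb from STMN1, STMN3 or STMN4 (black diamonds), with genes called higher in red, lower in blue and others in grey, and dotted lines at the fold threshold of 0.85 in both directions. No tested neighbor of STMN4 was called higher, and the nearest, TRIM35, stands at 0.61, while 1 called neighbor of STMN3 is not drawn.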

How the data were processed

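Total RNA of 22RV1 cells was sequenced by the authors as paired-end reads of 100 bases. After trimming (Trimmomatic), the authors mapped reads to hg19 by HISAT2 and, per the study's methods, assembled them by StringTie and calculated FPKM. They deposited FPKM values per gene. The library kit is not one that marks strand, so reads of overlapping antisense genes cannot be told apart. The submitters' processing notes give Trimmomatic 0.38 and also list HTSeq, so which tool made the deposited values is unclear, and the gene annotation is not given in the sources used here. From the deposited FPKM values, log2(FPKM + 0.1) was fitted with limma 3.58.1 in R 4.3.3 (mean-variance trend, no block, Benjamini-Hochberg adjustment over 12729 genes). The fold threshold is that of the study, whose results give an FDR of 0.05 and methods 0.01. The steps were tested on simulated data. An exact test of 3 samples against 3 cannot go below 0.10.

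The members and lists were chosen with earlier results of these data known. Named genes are the members, the largest rises, the genes nearest in pattern, called neighbors, CDKN1B, UHMK1, E2F1, FOXM1, REST and TUBB3, and from each list up to 3 called genes per direction with groups that do not overlap and up to 2 not called with the highest mean. The uncalled neighbors, RRAD with another pseudocount and the second list of genes no longer called were added after their values were seen. Gene intervals are those of the files with 1 added to the start. Promoters are from RefSeq and were placed on hg19 by exact match, and gene models are from GENCODE 44 lifted to GRCh37. Some genes that the rule names are not reported here. The alternatives concerned scaling, pseudocount, filter, variance model, FDR, replicate block and each sample left out.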

Additional observations from a re-analysis of the deposited data

How the results depend on the processing

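The stathmin fold changes and the called list genes and neighbors kept their direction under the alternatives run, whereas the medians of 6 of the 7 lists, all but the stabilizers, changed sign under equal sums, and 199 of 219 values stayed within the spread between replicates or within 1.5 times the count reported. With each sample scaled by the median of its gene ratios, 4017 genes were called and the list medians kept their sign. None of the 120 list genes and neighbors changed call under that scaling. Rescaling to equal FPKM sums gave log2 fold changes of -1.87 (STMN1), -0.59 (STMN3) and 7.36 (STMN4), 6282 called genes against 4027, 5 called destabilizers, 15 called stabilizers and 13 called neighbors. Without MIR6087 in the sums, these fold changes were -2.25, -0.97 and 6.997, and 2 tubulin cofactors were called. The medians of the tubulins (-0.18), the cofactors (-0.06) and the neuronal genes (-0.19) then kept their sign. Those of the destabilizers (0.22), the kinases and partners (0.005) and the regulators (0.23) still changed sign. Quantile normalization gave -2.29 for STMN1, 3 called tubulins and 5 called genes among the kinases and partners. STMN4 was at 5.51 with a pseudocount of 1 and at 6.82 with 0.01, and the pseudocount of 1 left 1 destabilizer and 5 stabilizers called. Of the neuronal genes, 10 were called with no filter, where their median became 0.24, and 3 when a mean of 5 FPKM was required. For these list counts the cause was not tested, other than that the filters change which genes enter.

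With each sample left out in turn, the log2 fold change ranged from -2.83 to -2.53 for STMN1, from -1.46 to -1.28 for STMN3 and from 6.57 to 6.75 for STMN4, and 3834 to 4420 genes were called. Both groups carry the replicate numbers 1 to 3, but deviations from the group means correlated by only 0.116, 0.0328 and 0.0342 between same-numbered samples, and 4 of 6 samples correlated best with their own number. With the number as a replicate block, 4033 genes were called and the calls of list genes and neighbors did not change. A filter that asks for at least 1 FPKM in 3 samples, chosen after seeing the data, gave 4192 called genes. It changed no call of the list genes and neighbors already tested. With the genes it let in, 37 of 94 list genes were called, against 35 of 92. FPKM holds no counts, so precision at low levels, such as those of STMN2, is unknown.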
